A study of Mus musculus with 12 samples.

Results

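Ubiquitin-conjugating (E2) enzymes carry ubiquitin, or a protein that resembles it, between the E1 enzyme that activates it and the E3 ligase that selects the target. All genes whose symbol starts with Ube2 were taken, which gave 37 of the 23420 genes listed, and mRNA counts of these genes were compared in mouse T cells with and without Otub1. The rule is the symbol alone, with no threshold on a measured value. One of them, Ube2cbp, is named as a binding protein of UBE2C and is not itself an E2. Of the 37, 32 passed the filter on low counts and were tested.

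An E2 takes ubiquitin onto a cysteine of its active site, and the E2 often decides which kind of chain is built. Chains linked through lysine 48 mark proteins for the proteasome, while chains linked through lysine 63 serve as scaffolds in receptor signalling and DNA repair and are built by UBE2N with a catalytically inactive partner, UBE2V1 or UBE2V2. OTUB1 is a deubiquitinase that cleaves lysine 48 chains. It also holds charged UBE2N and the charged UBE2D and UBE2E enzymes and so blocks them without cleaving anything, as worked out mainly with human proteins. The mRNA of these enzymes is what was measured here; protein, charging and activity were not.

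A total of 4 groups of 3 libraries each were used, from OT-I mice of 6 to 8 weeks on the C57BL/6 background. OT-I mice carry a T cell receptor transgene that recognises an ovalbumin peptide. Stimulated KO cells came from OTUB1-CD4Cre-OT-I mice, in which Cre expressed from CD4 sequences acts in developing T cells, and were kept for 24 h with plate-bound anti-CD3 and anti-CD28 at 1 µg/ml each. Stimulated WT cells were wild-type OT-I cells treated in the same way. Fresh KO and fresh WT cells were the untreated cells of these 2 genotypes, so stimulation and 24 h of culture form 1 factor. The genotype tag of the knockout samples reads OTUB1-DKO, and the control carries no stated Cre. The sources used here do not say that libraries of a group came from separate mice. The p-values then measure only the spread between libraries, part of which may be technical, and in stimulated WT cells all of it may be.

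The libraries held 15064488 to 25920035 gene counts. A cell type tag names splenic DCs, whereas the study's design names naive CD8 T cells of the spleen, and the T cell genes were the abundant ones. Cd8a, a chain of the CD8 coreceptor, averaged 477 ± 45.7 CPM in stimulated KO, 593 ± 57.4 in stimulated WT, 1548 ± 19.6 in fresh KO and 1519 ± 33.6 CPM in fresh WT cells (SD, n = 3 each). CPM is the count of a gene per 1e6 gene counts of its library, with TMM scaling. The 7 CD8 T cell markers found, Cd3d, Cd3e and Cd3g among them, summed to 1594 to 1781 CPM in stimulated KO and 1955 to 2080 CPM in stimulated WT libraries. In fresh KO libraries their sum was 5245 to 5521 CPM and in fresh WT libraries 5150 to 5381 CPM. Dendritic cell genes were present in fresh cells: Flt3, a growth factor receptor, averaged 18.7 ± 4.51 CPM in fresh KO and 22.1 ± 4.42 CPM in fresh WT cells, and Clec9a, an uptake receptor, 17.6 ± 3.81 and 20.8 ± 5.55 CPM in the same groups. After stimulation Clec9a averaged 0.156 ± 0.095 CPM in KO and 0.0794 ± 0.0328 CPM in WT cells. Y-linked reads were found in 1 library each of stimulated KO (replicate 3), fresh KO (replicate 2) and fresh WT (replicate 3), and in none of stimulated WT above 6 counts. The libraries with these reads had 69 to 165 counts of Xist, which is transcribed from the inactive X, and the others 32155 to 69469, so the libraries of those 3 groups did not all come from the same mouse.

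Otub1 itself was checked first. Otub1 had 16.2, 13.8 and 14.5 CPM in stimulated KO, 85.7, 100.1 and 96.1 CPM in stimulated WT, 25.4, 28.8 and 28.6 CPM in fresh KO and 72.6, 70.8 and 45.1 CPM in fresh WT libraries. All KO libraries lay below all WT libraries in both states, and fresh WT replicate 3 was the lowest WT library. The log2 fold change of KO over WT was -2.66 in stimulated cells (SE 0.14, edgeR adjusted p = 1.35e-07) and -1.19 in fresh cells (SE 0.14, edgeR adjusted p = 0.000559). Reads remained in every KO library, and gene counts do not show which exons they came from.

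Few of the Ube2 transcripts were called for genotype, close to the share over all tested genes. In stimulated cells 2 of the 32 tested genes were higher in KO than in WT and 0 were lower, where 9.3% of all 12759 tested genes were called, 5.08% higher and 4.22% lower. The 2 were Ube2c, which starts ubiquitin chains for the anaphase-promoting complex, and Ube2e3, one of the E2s that OTUB1 binds. In fresh cells 0 of 32 were called by edgeR, where 1.2% of all genes were called. DESeq2 and limma-voom also called 0 in fresh cells, and 3 of the 32 had an unadjusted p under 0.05, against 14.1% of all genes.

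The intervals were narrow for most of these genes. In 29 of 32, the 95% interval of the KO effect lay within 0.5 log2 units of 0, in stimulated and in fresh cells alike. The exceptions in stimulated cells were Ube2c, Ube2e2 and Ube2j2, and those in fresh cells were Ube2e2, Ube2j2 and Ube2t. The median absolute log2 fold change was 0.069 in stimulated cells, against 0.12 over all tested genes, and 0.066 in fresh cells, against 0.091 over all tested genes. The libraries of the 2 genotypes did not overlap for 9 of 32 genes in stimulated cells, 7 higher in KO (14.3% of all genes were) and 2 lower (13.1% of all genes), and for 9 of 32 in fresh cells, 2 higher in KO (10.6% of all genes) and 7 lower (9.42% of all genes). The plot of KO effects shows each estimate with its interval.

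**Figure D1:**
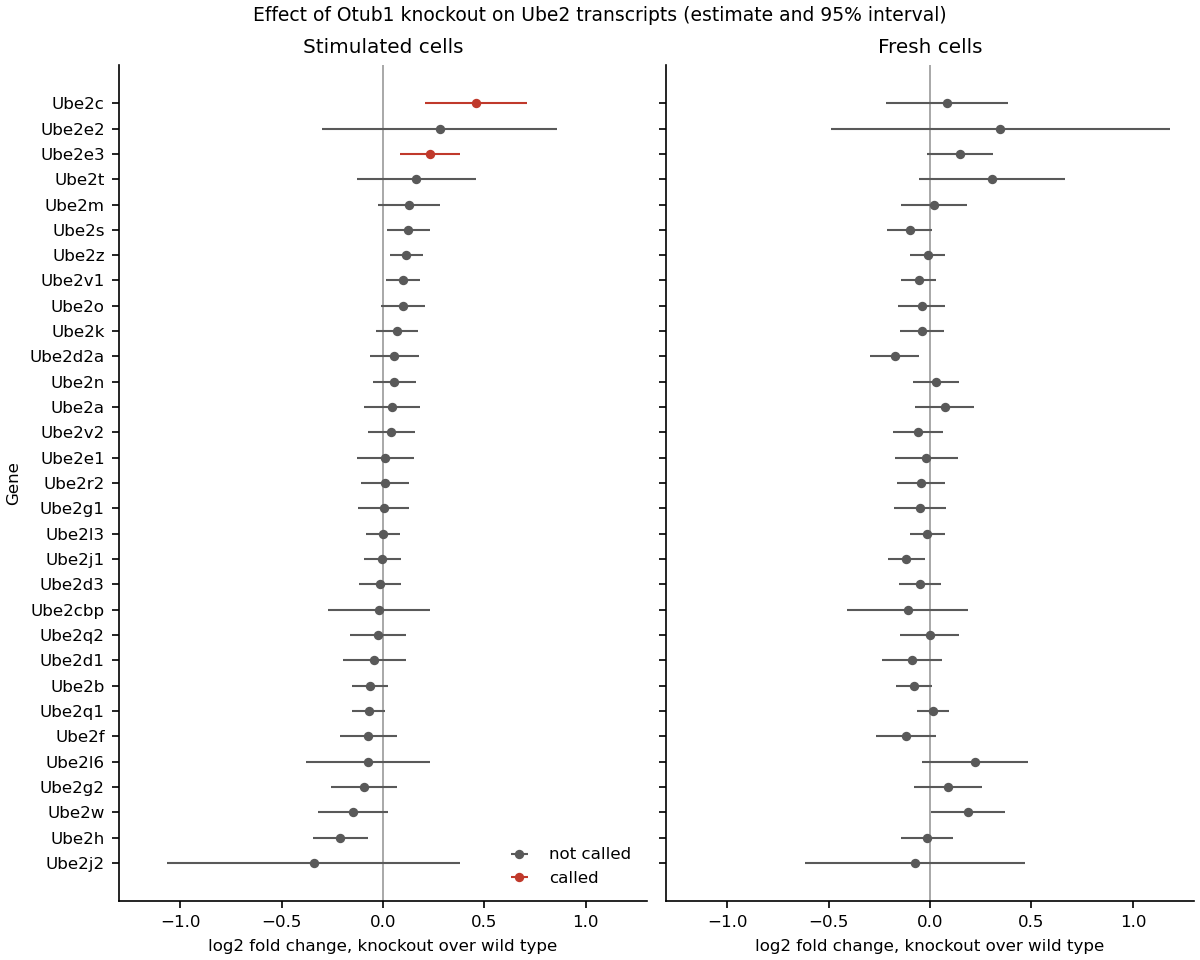
Log2 fold change of KO over WT for 31 of the 32 tested Ube2 genes, in stimulated cells on the left and fresh cells on the right; points are edgeR estimates, bars are 95% intervals, and red marks an adjusted p under 0.05. Ube2c and Ube2e3 are the red points in stimulated cells, at 0.46 and 0.23, and no point is red in fresh cells.

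Stimulation changed nearly all of them. In stimulated WT against fresh WT cells 31 of 32 were called, 22 higher and 9 lower, where 82.3% of all genes were called, 40.8% higher and 41.4% lower. In stimulated KO against fresh KO cells 30 of 32 were called, 22 higher and 8 lower, where 83.9% of all genes were called, 41.7% higher and 42.2% lower. The median log2 fold change of the 32 was 0.55 in WT and 0.44 in KO cells, against -0.027 and -0.022 over all tested genes. Changes of at least 2-fold were called in 11 of 32 genes (34.4%) in each genotype, against 40.1% of all genes in WT and 42.6% in KO cells. Summed over all 37 genes, the level was 2956 to 3073 CPM in stimulated KO, 2950 to 2982 in stimulated WT, 2654 to 2689 in fresh KO and 2677 to 2801 CPM in fresh WT libraries. In these bulk samples, fewer cells of a type and less RNA per cell cannot be told apart. CPM is a share of a library's counts, so rose and fell refer to that share throughout. RNA per cell was not measured, and a small change in share need not have the same direction per cell.

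The stimulation calls of the genotypes were set side by side. Of the 32 genes, 21 were called higher in both genotypes (38.7% of all tested genes were), 8 were called lower in both (38.9% of all genes) and 0 were called with opposite signs (0.0627% of all genes), while 2 were called in WT only and 1 in KO only. The 2 were Ube2d2a and Ube2g2 and the 1 was Ube2d3. The interaction, which tests whether the KO effect differed between stimulated and fresh cells, was called for 0 of 32 genes by edgeR, DESeq2 and limma-voom, where edgeR called 2.26% of all genes. In edgeR 6 of 32 had an unadjusted p under 0.05, against 16.3% of all genes, and the lowest adjusted p was 0.117, for Ube2s.

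**Figure D2:**
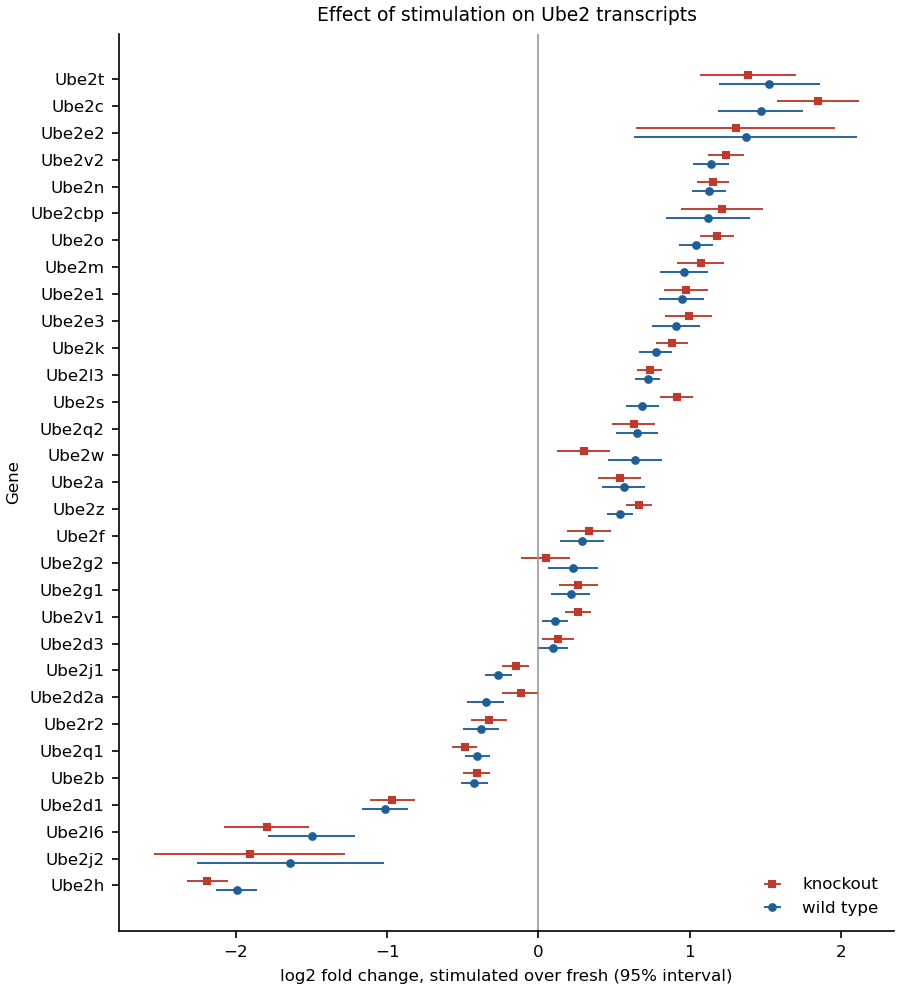
Log2 fold change of stimulated over fresh cells for 31 of the 32 tested Ube2 genes, with red squares for KO and blue circles for WT; bars are 95% intervals. The order runs from Ube2t, at 1.53 in WT, down to Ube2h, at -1.99 in WT, and the squares and circles of a gene lie on the same side of 0.

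Among the E2s bound by OTUB1, Ube2n was the one that builds lysine 63 chains. Ube2n had 183, 187 and 186 CPM in stimulated KO, 179, 174 and 182 CPM in stimulated WT, 79.9, 83.5 and 86.1 CPM in fresh KO and 74.5, 85.3 and 84.7 CPM in fresh WT libraries. Each stimulated library was above each fresh library, the stimulated KO libraries were all above the stimulated WT libraries, and the fresh groups overlapped. The log2 fold change with stimulation was 1.15 in KO (SE 0.051, edgeR adjusted p = 5.09e-12) and 1.13 in WT cells (SE 0.052, adjusted p = 9.12e-12). The KO effect was 0.056 in stimulated cells (95% interval -0.049 to 0.16, adjusted p = 0.54) and 0.029 in fresh cells (95% interval -0.082 to 0.14, adjusted p = 0.864).

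The partners of UBE2N behaved differently from each other on stimulation. Ube2v2 had 85.1, 92.4 and 90.4 CPM in stimulated KO, 90, 82.9 and 87.3 CPM in stimulated WT, 35.8, 39.2 and 38.2 CPM in fresh KO and 38.3, 39.7 and 39.9 CPM in fresh WT libraries. Stimulated and fresh libraries of Ube2v2 were far apart, with the genotypes overlapping in stimulated and in fresh cells. Ube2v1 had 153, 154 and 149 CPM in stimulated KO, 141, 147 and 138 CPM in stimulated WT, 127, 125 and 128 CPM in fresh KO and 131, 135 and 129 CPM in fresh WT libraries. Ube2v2 rose by 1.24 log2 units in KO (SE 0.056, adjusted p = 7.06e-12) and by 1.14 in WT cells (SE 0.057, adjusted p = 2.62e-11). Ube2v1 rose by 0.26 in KO (95% interval 0.18 to 0.35, adjusted p = 1.6e-05) and by 0.11 in WT cells (95% interval 0.023 to 0.19, adjusted p = 0.0209), intervals that lie below those of Ube2v2, 1.12 to 1.36 and 1.02 to 1.26. In stimulated cells every KO library of Ube2v1 was above every WT library, a difference that did not pass (log2 fold change 0.098, adjusted p = 0.142). The WT call of Ube2v1 was lost without the libraries with Y-linked reads (adjusted p = 0.114) and without fresh WT replicate 1 (0.056), fresh WT replicate 3 (0.0916) or stimulated WT replicate 2 (0.0747). Of the exon bases of Ube2v1, 77.3% are shared on the same strand with Gm20431, so its counts are uncertain. Per kilobase of coding-transcript exons, Ube2v1 averaged 65.6 ± 2.06 CPM and Ube2v2 20.3 ± 0.83 CPM in stimulated WT cells, against 60.8 ± 1.61 and 9.2 ± 0.206 CPM in fresh WT cells (SD, n = 3).

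The UBE2D enzymes, which work with many E3 ligases, did not move together. Ube2d1 had 20, 18.5 and 18.6 CPM in stimulated KO, 21.1, 18.1 and 19.7 CPM in stimulated WT, 36.9, 38 and 36.7 CPM in fresh KO and 38.9, 38.1 and 42 CPM in fresh WT libraries. Every stimulated library of Ube2d1 was below every fresh one. The genotypes overlapped in stimulated cells, while every fresh KO library was below every fresh WT library, a difference that did not pass (log2 fold change -0.09, adjusted p = 0.61). Its log2 fold change was -0.96 in KO (SE 0.071, adjusted p = 2.73e-09) and -1.01 in WT cells (SE 0.071, adjusted p = 1.84e-09).

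Ube2d2a had 170.4, 198 and 177 CPM in stimulated KO, 181, 169 and 174 CPM in stimulated WT, 189, 208 and 194 CPM in fresh KO and 214, 228 and 226 CPM in fresh WT libraries. The fresh KO libraries of Ube2d2a were all below the fresh WT libraries, while the stimulated groups overlapped. It fell with stimulation by 0.35 log2 units in WT (SE 0.057, adjusted p = 3.53e-05). In KO cells the value was -0.12, which did not pass (adjusted p = 0.0668), and the test of the difference, the interaction, gave 0.23 (SE 0.08, adjusted p = 0.155). The KO effect in fresh cells was -0.17 (95% interval -0.30 to -0.054), with an adjusted p of 0.17, the lowest of the 32 genes in that comparison. AC141471.2 shares 12.5% of the exon bases of Ube2d2a on the same strand. Near-identical sequence in other genes, AC141471.2 included, covers 17.9% of the longest coding transcript of Ube2d2a, so its level is uncertain.

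Ube2d3 had 425, 470.1 and 434 CPM in stimulated KO, 442, 445 and 455 CPM in stimulated WT, 403, 417 and 394 CPM in fresh KO and 398, 431 and 427 CPM in fresh WT libraries. The 4 groups of Ube2d3 lay within 394 to 470.1 CPM. Its log2 fold change with stimulation was 0.13 in KO (adjusted p = 0.0215) and 0.094 in WT cells (adjusted p = 0.0842). The KO call was lost when only the KO groups were fitted (adjusted p = 0.0566) and without fresh KO replicate 1 (0.0562), fresh KO replicate 3 (0.0784) or stimulated KO replicate 2 (0.0803). Ube2d2b, a further UBE2D gene, had 2 counts in all libraries together.

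All 3 UBE2E genes rose with stimulation. Ube2e1 had 37, 34.4 and 33.8 CPM in stimulated KO, 33.1, 35.9 and 35.4 CPM in stimulated WT, 18, 17.4 and 18.1 CPM in fresh KO and 17.2, 17.7 and 19.3 CPM in fresh WT libraries. Ube2e3 had 35.6, 36 and 32.8 CPM in stimulated KO, 31.2, 29.9 and 27.8 CPM in stimulated WT, 18.5, 16.6 and 17.4 CPM in fresh KO and 15.9, 15.7 and 15.8 CPM in fresh WT libraries. Stimulated and fresh libraries did not overlap for either gene. The stimulation effect was 0.98 in KO and 0.95 in WT cells for Ube2e1 (adjusted p = 1.56e-09 and 3.09e-09). It was 0.99 in KO and 0.91 in WT cells for Ube2e3 (adjusted p = 2.25e-09 and 1.1e-08). Of the exon bases of Ube2e1, 51.0% lie opposite Nkiras1, an inhibitor of NF-kappaB, on the other strand. Nkiras1 was at 8.76 ± 0.526 CPM in stimulated KO, 9.52 ± 0.581 in stimulated WT, 13.3 ± 1.71 in fresh KO and 13.8 ± 1.14 CPM in fresh WT cells, and it fell with stimulation while Ube2e1 rose.

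Ube2e3 was the E2 of this group that was called for genotype. The 3 stimulated KO libraries, at 32.8 to 36.0 CPM, were all above the 3 stimulated WT libraries, at 27.8 to 31.2 CPM. The log2 fold change was 0.23 (SE 0.069, 95% interval 0.085 to 0.38, adjusted p = 0.0478). In fresh cells KO libraries were also all above WT libraries, with a log2 fold change of 0.15 that did not pass (95% interval -0.015 to 0.31, adjusted p = 0.412). The stimulated call is close to the threshold: it was lost with DESeq2 (adjusted p = 0.0501), with other size factors (0.0503), with no filter on low counts (0.0699), with only the stimulated groups in the fit (0.0882) and in 8 of the 12 fits that left out 1 library, where the adjusted p reached 0.228. The log2 fold change stayed between 0.19 and 0.27 in those 12 fits.

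Ube2e2 had 1.74, 1.2 and 0.861 CPM in stimulated KO, 1.15, 1.11 and 0.914 CPM in stimulated WT, 0.571, 0.498 and 0.479 CPM in fresh KO and 0.486, 0.339 and 0.399 CPM in fresh WT libraries. Ube2e2 was the rarest of the 3, and its genotypes overlapped in both states. It rose by 1.3 log2 units in KO (SE 0.31, adjusted p = 0.00103) and by 1.37 in WT cells (SE 0.35, adjusted p = 0.00186). Its KO effect had wide intervals, -0.30 to 0.86 in stimulated and -0.49 to 1.18 in fresh cells, and was not called (adjusted p = 0.587 and 0.759). Over the 7 tested E2s that OTUB1 binds, the summed level was 872 to 945 CPM in stimulated KO against 873 to 894 CPM in stimulated WT libraries, and 746 to 781 CPM in fresh KO against 759 to 816 CPM in fresh WT libraries. The ranges of the genotypes overlapped in both states.

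**Figure D3:**
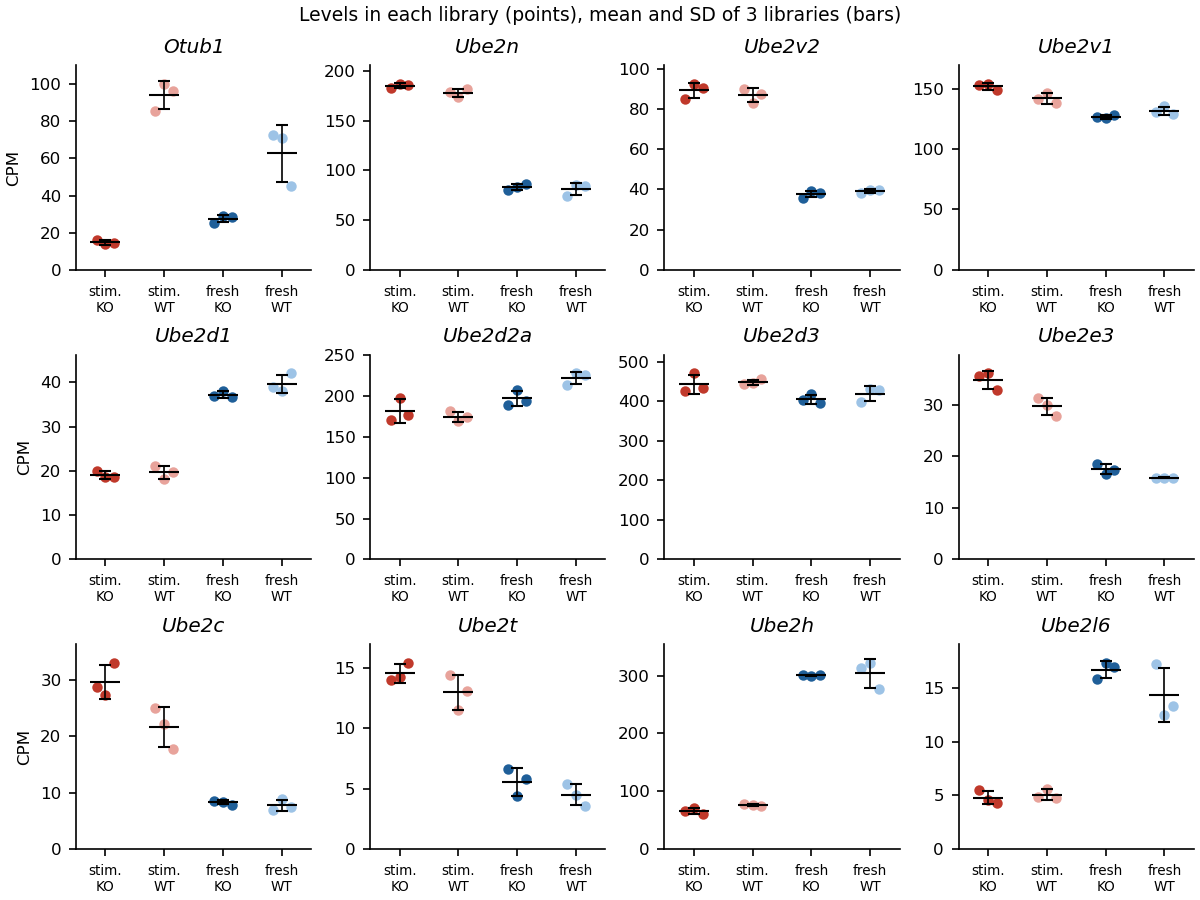
Level in CPM of Otub1 and of 11 Ube2 genes in each of the 12 libraries (points), with the mean and SD of the 3 libraries of a group (black bars); groups run from stimulated KO and stimulated WT to fresh KO and fresh WT, and every axis starts at 0. Otub1 is low in both KO groups, whereas the Ube2 genes mainly separate stimulated from fresh libraries.

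Both E2s of the anaphase-promoting complex, the ligase that drives exit from mitosis, rose with stimulation. UBE2C places the first ubiquitin on a target and UBE2S extends the chain through lysine 11. Ube2c had 28.6, 27.2 and 33 CPM in stimulated KO, 24.9, 22.1 and 17.7 CPM in stimulated WT, 8.57, 8.28 and 7.86 CPM in fresh KO and 6.86, 8.86 and 7.46 CPM in fresh WT libraries. The stimulated KO libraries of Ube2c, at 27.2 CPM and above, did not overlap the stimulated WT libraries, at 24.9 CPM and below. The log2 fold change of KO over WT was 0.46 in stimulated cells (SE 0.12, 95% interval 0.21 to 0.71, edgeR adjusted p = 0.0233) and 0.084 in fresh cells (95% interval -0.22 to 0.38, adjusted p = 0.856). The interaction was 0.37 (SE 0.18, adjusted p = 0.324), so the KO effects in the 2 states were not shown to differ. With stimulation Ube2c rose by 1.85 in KO (SE 0.13, adjusted p = 1.26e-09) and by 1.47 in WT cells (SE 0.13, adjusted p = 3.65e-08).

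The genotype call of Ube2c held in some fits and was lost in others. DESeq2 called it (adjusted p = 0.00729), as did limma-voom (0.0095) and edgeR with DESeq2 size factors (0.0247) or no filter (0.00792). Of the 12 fits that left out 1 library, 3 lost the call, and the log2 fold change stayed between 0.33 and 0.57. The call was lost without stimulated KO replicate 3 (log2 fold change 0.37, adjusted p = 0.0963), stimulated WT replicate 2 (0.48, adjusted p = 0.0608) or stimulated WT replicate 3 (0.33, adjusted p = 0.123). The call was also lost without the libraries with Y-linked reads (0.38, adjusted p = 0.101) and with only the stimulated groups in the fit (0.46, adjusted p = 0.0507). Mitosis genes moved with it. On a list of mitotic cyclins, kinases and motors, 9 of 16 were higher in stimulated KO than in stimulated WT cells and 0 lower. Over all tested genes, 5.08% were called higher and 4.22% lower. The listed genes summed to 2308 to 2366 CPM in KO against 1614 to 2180 CPM in WT libraries. Among the 16 subunits and activators of the complex itself, 3 were higher in stimulated KO cells and 0 lower. These were Anapc2 (log2 fold change 0.18, adjusted p = 0.0244), Cdc20 (0.34, adjusted p = 0.0256) and Anapc5 (0.16, adjusted p = 0.0258). The part of these in the Ube2c result was not tested. Exons of Ube2c overlap Tnnc2 on the other strand over 22.8% of their bases, and Tnnc2 had at most 0.2 CPM in any library.

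Ube2s rose by 0.91 log2 units in KO (SE 0.05, adjusted p = 7.86e-11) and by 0.69 in WT cells (SE 0.051, adjusted p = 3.36e-09). It averaged 144 ± 9.57 in stimulated KO, 132 ± 5.28 in stimulated WT, 76.7 ± 1.84 in fresh KO and 82.2 ± 0.579 CPM in fresh WT cells (SD, n = 3). The genotypes overlapped in stimulated cells, and in fresh cells every KO library was below every WT library. Neither difference passed (log2 fold change 0.13, adjusted p = 0.132, and -0.10, adjusted p = 0.41).

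The promoters of Ube2c, Ube2s and Ube2t, the E2s tied to division and replication-linked repair, are shown for that role. These genes are among the 22 of 32 tested genes called higher with stimulation in WT cells. The windows are those of RefSeq on GRCm38.p6, from 250 bases before to 50 after the annotated start. Capitals mark the CCAAT box, the letters CCAAT, and the CHR element, TTTGAA or TTCGAA, an element known from promoters of cell cycle genes. Both strands were searched, so a box on the other strand reads ATTGG and a CHR element TTCAAA or TTCGAA.
Ube2c, chr2:164769679-164769978, plus strand: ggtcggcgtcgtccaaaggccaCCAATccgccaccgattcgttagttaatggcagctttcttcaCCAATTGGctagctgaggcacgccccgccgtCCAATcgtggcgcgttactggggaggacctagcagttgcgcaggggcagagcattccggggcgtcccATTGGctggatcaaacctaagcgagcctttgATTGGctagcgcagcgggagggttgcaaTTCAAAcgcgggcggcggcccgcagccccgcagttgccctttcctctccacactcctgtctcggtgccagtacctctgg
Ube2s, chr7:4812291-4812590, minus strand: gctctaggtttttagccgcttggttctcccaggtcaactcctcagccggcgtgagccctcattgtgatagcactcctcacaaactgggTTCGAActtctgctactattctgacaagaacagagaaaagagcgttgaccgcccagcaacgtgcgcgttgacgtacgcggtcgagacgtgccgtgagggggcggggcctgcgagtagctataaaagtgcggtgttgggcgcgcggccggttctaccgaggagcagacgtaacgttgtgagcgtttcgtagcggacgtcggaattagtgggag
Ube2t, chr1:134962315-134962614, plus strand: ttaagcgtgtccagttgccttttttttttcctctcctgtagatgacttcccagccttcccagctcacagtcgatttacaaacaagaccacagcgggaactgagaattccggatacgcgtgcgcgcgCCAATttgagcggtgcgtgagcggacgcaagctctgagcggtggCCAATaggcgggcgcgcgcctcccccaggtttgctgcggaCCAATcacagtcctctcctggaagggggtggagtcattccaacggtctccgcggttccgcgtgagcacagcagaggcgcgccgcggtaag

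The Ube2c window holds 6 CCAAT boxes, at -228, -186, -183, -155, -88 and -57 from the start, and 1 CHR element at -29. The boxes at -186 and -183 overlap on opposite strands. The Ube2t window holds 3 CCAAT boxes, at -124, -80 and -40, and the Ube2s window holds 1 CHR element, at -162. These positions count from the RefSeq start. The GENCODE M21 annotation starts Ube2c at 164769898 and Ube2s, on the minus strand, at 4812590, both further upstream. By GENCODE, the Ube2s window and the CHR element of Ube2c lie within the gene and not before it. Over all 32544 promoter windows, 37.4% hold a CCAAT box, 3.35% at least 3 and 0.0799% at least 6, 19.1% hold a CHR element and 7.5% both. Among the 30 Ube2 genes with a window, 9 hold a CCAAT box and 5 a CHR element. These are counts per gene over all its windows, whereas the shares above are per window. Ube2f, an E2 of NEDD8 that was not chosen for such a role, holds 3 CCAAT boxes and 1 CHR element, at -41, in 1 window. These matches describe the letters only.

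**Figure D4:**
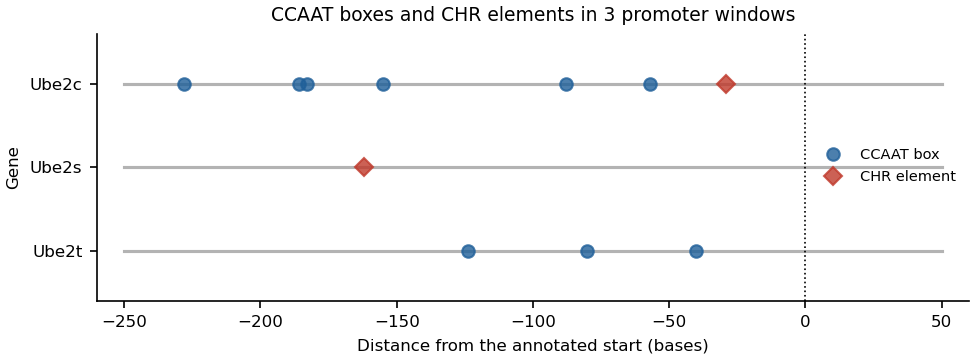
Position of CCAAT boxes (blue circles) and CHR elements (red diamonds) in the promoter windows of Ube2c, Ube2s and Ube2t. The x axis gives the distance in bases from the annotated RefSeq start (dotted line). Ube2c has 6 boxes and an element at -29, Ube2s an element at -162 and Ube2t 3 boxes.

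Among the E2s of DNA damage tolerance and repair, Ube2t had the highest stimulation effect of all 32 in WT cells. UBE2T attaches ubiquitin to FANCD2 in the Fanconi anaemia pathway. Ube2t had 14, 14.2 and 15.4 CPM in stimulated KO, 14.4, 11.5 and 13.1 CPM in stimulated WT, 6.65, 4.35 and 5.75 CPM in fresh KO and 5.34, 4.5 and 3.6 CPM in fresh WT libraries. The stimulated libraries lay well above the fresh ones, and the genotypes overlapped in both states. It rose by 1.39 in KO (SE 0.15, adjusted p = 3.06e-07) and by 1.53 in WT cells (SE 0.16, adjusted p = 1.98e-07). The KO effect was not called in stimulated (0.16, adjusted p = 0.518) or fresh cells (0.31, adjusted p = 0.449).

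UBE2A and UBE2B, both relatives of yeast Rad6 that act with RAD18 on PCNA, went in opposite directions. Ube2b had 81, 85.5 and 82.1 CPM in stimulated KO, 86.4, 84.4 and 88.8 CPM in stimulated WT, 111, 108 and 110.3 CPM in fresh KO and 119, 117 and 112 CPM in fresh WT libraries. Fresh libraries of Ube2b were all higher than stimulated ones, and every fresh KO library was below every fresh WT library. Ube2b fell by 0.41 log2 units in KO (SE 0.042, adjusted p = 1.84e-07) and by 0.42 in WT cells (SE 0.042, adjusted p = 1.27e-07). Ube2a rose by 0.54 in KO (adjusted p = 1.52e-06) and by 0.56 in WT cells (adjusted p = 1.14e-06). Per kilobase, Ube2a averaged 21.5 ± 0.0639 CPM and Ube2b 46.1 ± 1.17 CPM in stimulated WT cells, against 14.6 ± 0.415 and 61.8 ± 1.8 CPM in fresh WT cells.

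The lowest stimulation effect belonged to Ube2h, the E2 that works with the CTLH ligase complex. Ube2h had 65.6, 71.8 and 60.7 CPM in stimulated KO, 77.9, 76 and 74.9 CPM in stimulated WT, 301, 299.8 and 302 CPM in fresh KO and 313, 322 and 276 CPM in fresh WT libraries. The 6 stimulated libraries were at 60.7 to 77.9 CPM and the 6 fresh libraries at 276 to 322 CPM. Ube2h fell by 2.19 log2 units in KO (SE 0.064, adjusted p = 3.87e-14) and by 1.99 in WT cells (SE 0.063, adjusted p = 1.25e-13). In stimulated cells every KO library was below every WT library, with a log2 fold change of -0.21 (95% interval -0.35 to -0.074) and an adjusted p of 0.0517, just above the threshold of 0.05. DESeq2 called it (adjusted p = 0.0327), as did edgeR with no filter on low counts (0.0371), without fresh WT replicate 3 (0.0332) and without stimulated KO replicate 2 (0.0187). Of its longest coding transcript, 63.1% is at least 98% identical to other annotated genes, so reads that map to more than 1 place could be lost.

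Ube2l6, the E2 of ISG15, a ubiquitin-like protein induced by interferon, fell with its pathway. Ube2l6 had 5.5, 4.6 and 4.3 CPM in stimulated KO, 4.81, 5.64 and 4.78 CPM in stimulated WT, 15.8, 17.4 and 17 CPM in fresh KO and 17.2, 12.5 and 13.3 CPM in fresh WT libraries. Fresh WT replicate 1, at 17.2 CPM, stood with the fresh KO libraries, and the other 2 fresh WT libraries were lower. Ube2l6 fell by 1.8 log2 units in KO (SE 0.13, adjusted p = 2.88e-09) and by 1.5 in WT cells (SE 0.13, adjusted p = 3.7e-08). All 5 further genes of the ISG15 system that were listed were called lower in both genotypes, where 38.9% of all genes were. Their median log2 fold change was -2.37 in KO and -2.21 in WT cells. The lowest adjusted p was that of Uba7, the E1 of ISG15, which fell by 3.17 log2 units in KO and by 2.34 in WT cells (adjusted p = 8.31e-14 and 2.14e-12). The KO effect on Ube2l6 was not called in fresh cells (0.22, adjusted p = 0.447). Beside it, 20 interferon response genes summed to 2855 to 3036 CPM in fresh KO libraries against 3067 CPM in fresh WT replicate 1 and 1905 and 1991 CPM in fresh WT replicates 2 and 3, and their part in the Ube2l6 values was not tested.

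The E2s of NEDD8, a ubiquitin-like protein, rose with stimulation in both genotypes. Ube2m, which passes NEDD8 to most cullins, rose by 1.07 in KO and 0.96 in WT cells (adjusted p = 1.22e-09 and 6.03e-09). Ube2f, which serves cullin 5, rose by 0.34 in KO and 0.29 in WT cells (adjusted p = 0.000265 and 0.0011). The 95% intervals of these NEDD8 enzymes did not overlap in either genotype, being 0.92 to 1.23 against 0.19 to 0.48 in KO and 0.81 to 1.12 against 0.14 to 0.43 in WT cells.

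Genes of E1 enzymes, which hand ubiquitin-like proteins to the E2s, were set beside them. Uba2 and Sae1, the subunits of the E1 of SUMO, rose by 1.16 and 1.23 log2 units in KO and by 1.06 and 0.85 in WT cells (adjusted p at most 4.01e-10). Sae1 was also the only one of 9 E1 genes called for genotype in fresh cells, where 1.2% of all genes were called. Sae1 was at 80.3 ± 2.21 CPM in KO against 95.4 ± 5.97 CPM in WT (log2 fold change -0.25, adjusted p = 0.0354). In stimulated cells, where 9.3% of all genes were called, the one E1 gene called was Uba7. Uba7 was at 30.9 ± 3.6 CPM in KO against 46.8 ± 2.54 CPM in WT (log2 fold change -0.60, adjusted p = 0.00207). The interaction was called for Sae1 (0.38, edgeR adjusted p = 0.0161) and for Uba7 (-0.82, edgeR adjusted p = 0.00676), where 2.26% of all genes were called. Ube2z, which receives ubiquitin or FAT10 from the E1 UBA6, rose by 0.67 in KO and 0.54 in WT cells (adjusted p = 2e-10 and 3.6e-09), and Uba6 itself rose by 1.56 and 1.70 (adjusted p = 1.44e-12 and 8.02e-13). Stimulated KO libraries of Ube2z, at 132 to 143 CPM, were all above the stimulated WT libraries, at 126 to 127 CPM, a difference that did not pass (log2 fold change 0.12, adjusted p = 0.0798).

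Among E2s of endoplasmic reticulum degradation and lysine 48 chains, Ube2j2 fell most. UBE2J1 and UBE2J2 are anchored in the endoplasmic reticulum membrane. Ube2j2 had 1.2, 0.418 and 0.732 CPM in stimulated KO, 1.05, 0.626 and 1.37 CPM in stimulated WT, 3.27, 3.17 and 2.73 CPM in fresh KO and 3.1, 3.63 and 2.86 CPM in fresh WT libraries. Every stimulated library was below every fresh one, and the genotypes overlapped. Ube2j2 fell by 1.91 log2 units in KO (SE 0.30, adjusted p = 1.93e-05) and by 1.64 in WT cells (SE 0.29, adjusted p = 8.03e-05), and 24.0% of its transcript is near-identical to other genes, so its level is uncertain. Ube2j1 fell by 0.15 in KO and 0.26 in WT cells (adjusted p = 0.00394 and 3.13e-05).

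The other 3 enzymes of that group had positive estimates, and 1 of them did not pass in KO cells. Ube2k, which builds lysine 48 chains on its own, rose by 0.88 in KO and 0.78 in WT cells (adjusted p = 1.08e-10 and 7.07e-10). Ube2g1 rose by 0.26 and 0.21 (adjusted p = 0.000682 and 0.00384). Ube2g2 rose by 0.23 in WT cells (adjusted p = 0.0136) and had a log2 fold change of 0.047 in KO cells (adjusted p = 0.575); the interaction was -0.18 (adjusted p = 0.442). Its WT call was lost without fresh WT replicate 2 (adjusted p = 0.057) or stimulated WT replicate 3 (0.0661).

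Ube2r2 and Cdc34, related E2s that work with the SCF ligases, went in opposite directions on stimulation. Ube2r2 fell by 0.32 log2 units in KO and 0.38 in WT cells (adjusted p = 5.97e-05 and 1.34e-05), while Cdc34 rose by 1.14 and 1.20 (adjusted p = 2.56e-09 and 1.87e-09). Of 8 tested E2 or E2-like genes under other symbols, 4 rose and 1 fell in KO cells, where 41.7% of all genes rose and 42.2% fell. In WT cells 3 rose and 2 fell, where 40.8% of all genes rose and 41.4% fell. The one that fell in both was Birc6, a giant inhibitor of apoptosis with an E2 domain, by 0.82 in KO and 0.67 in WT cells (adjusted p = 4.87e-10 and 5.87e-09). None of the 8 was called for genotype by edgeR in either state, where 1.2% of all genes were called in fresh and 9.3% in stimulated cells. An unadjusted p under 0.05 was found for 2 in fresh cells, against 14.1% of all genes, and for 0 in stimulated cells.

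Of the 6 other tested ubiquitin E2s, 4 rose with stimulation in both genotypes and 2 fell, Ube2h and Ube2q1. Over all tested genes, 38.7% were called higher and 38.9% lower in both genotypes. Ube2q1 had 96.5, 95.7 and 97.3 CPM in stimulated KO, 102, 99.99 and 102 CPM in stimulated WT, 137, 137 and 133 CPM in fresh KO and 130.0, 136 and 136 CPM in fresh WT libraries. Stimulated libraries of Ube2q1 were all below fresh ones, by 0.49 log2 units in KO (SE 0.038, adjusted p = 5.99e-09) and 0.40 in WT cells (SE 0.038, adjusted p = 7.28e-08). Its relative Ube2q2 rose by 0.63 in KO and 0.65 in WT cells (adjusted p = 2.25e-07 and 1.82e-07). Near-identical sequence in Gm4895 covers 32.9% of the longest coding transcript of Ube2q2, so its level is uncertain. Ube2o, a large enzyme that acts as E2 and E3 at once, rose by 1.18 and 1.04 (adjusted p = 5.34e-12 and 3.28e-11).

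Ube2l3, which serves the HECT and RBR classes of E3 ligase, rose by 0.74 in KO and 0.72 in WT cells (adjusted p = 5.1e-11 and 8e-11). Its exons overlap Ydjc on the other strand over 29.8% of their bases. Near-identical sequence in other annotated genes, with this overlap with Ydjc counted in, covers 59.6% of its longest coding transcript, so its level is uncertain. Ydjc rose by 2.49 in KO and 2.08 in WT cells, to 29.7 ± 3.39 CPM in stimulated KO and 22.7 ± 2.28 CPM in stimulated WT cells, against 5.27 ± 0.837 CPM in fresh KO and 5.33 ± 0.652 CPM in fresh WT cells. Ube2w, which attaches ubiquitin to protein N-termini, rose by 0.30 in KO and 0.64 in WT cells (adjusted p = 0.00315 and 3.51e-06), with an interaction of -0.34 (SE 0.12, adjusted p = 0.158). The KO call of Ube2w was lost without the libraries with Y-linked reads (adjusted p = 0.0547).

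Ube2cbp had 12.1, 9.89 and 13.2 CPM in stimulated KO, 11.2, 11.2 and 13.3 CPM in stimulated WT, 5.66, 4.66 and 4.94 CPM in fresh KO and 5.83, 5.18 and 5.46 CPM in fresh WT libraries. Stimulated libraries of Ube2cbp were all above the fresh ones, and the genotypes overlapped in both states. The gene rose by 1.21 in KO (SE 0.13, adjusted p = 2.43e-07) and by 1.12 in WT cells (SE 0.13, adjusted p = 7.87e-07). The 5 genes that were not tested were Ube2d2b and Ube2ql1, with 2 counts each over the 12 libraries, and Ube2dnl1, Ube2dnl2 and Ube2u, with 0. A count of 0 allows up to 3 counts, which is 0.116 to 0.199 CPM in a library, counting error only.

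B cell, myeloid and CD8 T cell markers fell with stimulation, while the dendritic cell, NK cell and CD4 T cell lists held genes that fell and genes that rose. The 8 B cell markers summed to 24.1 to 32.3 CPM in stimulated KO, 29.2 to 35.2 in stimulated WT, 155 to 221 in fresh KO and 145 to 174 CPM in fresh WT libraries. The 7 detected myeloid markers summed to 37.3 to 43.4, 59.2 to 73.9, 227 to 337 and 199.8 to 332 CPM in the same groups. All 7 tested CD8 T cell markers were called lower in stimulated cells of both genotypes too, where 38.9% of all genes were. Of those 7, 4 were also lower in stimulated KO than in stimulated WT cells, where 4.22% of all genes were. These were Cd3d, Cd3e, Cd3g and Cd8a, with log2 fold changes of -0.49 to -0.31. The sum of all 7 was 1594 to 1781 CPM in stimulated KO against 1955 to 2080 CPM in stimulated WT libraries. The part of this in the genotype calls of Ube2c and Ube2e3 was not tested. Of the 10 dendritic cell markers 7 fell in both genotypes (38.9% of all genes did), with Cd209a and Siglech at most 0.157 CPM in any stimulated library. Batf3 and Ccr7 rose in both genotypes and Zbtb46 in KO cells, and these 3 were also higher in stimulated KO than in stimulated WT cells, by 0.95, 0.42 and 0.76 log2 units. The 7 NK cell markers summed to 205 to 238 CPM in stimulated KO, 228 to 251 in stimulated WT, 159 to 177 in fresh KO and 111 to 128 CPM in fresh WT libraries, with Klra8 and Klra4 at 0 in all. Of the 5 tested, Ncr1, Klrb1c and Klre1 fell in both genotypes, whereas Eomes, which CD8 T cells also use, rose in both and was higher in fresh KO than in fresh WT cells (log2 fold change 0.64, adjusted p = 0.0192), and Prf1 rose in WT cells. Of the 4 CD4 T cell markers, Cd4 and Cd40lg fell and Foxp3 rose in both genotypes. The part of these in the lower values of Ube2h, Ube2j2, Ube2l6, Ube2d1, Ube2b and Ube2q1 was not tested. Summed dendritic cell markers were 861 to 1083 CPM in stimulated KO against 662 to 811 CPM in stimulated WT libraries, of which Ccr7, also a T cell gene, made up 742 to 967 and 573 to 703 CPM.

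Per kilobase of coding-transcript exons, Ube2d2a and Ube2d3 led the order in fresh WT cells and Ube2s and Ube2d3 in stimulated WT cells. Ube2d1 stood at rank 13 of 32 in fresh WT and rank 23 in stimulated WT cells. In fresh WT cells the highest were Ube2d2a (89.7 ± 2.99 CPM per kb), Ube2d3 (88.9 ± 3.8) and Ube2h (65.2 ± 5.24), of which the first 2 differed by less than their spread. In stimulated WT cells the highest were Ube2s (96.4 ± 3.84) and Ube2d3 (94.9 ± 1.37), again within their spread, followed by Ube2d2a (70.5 ± 2.48). Ube2h stood at rank 20 of 32 in stimulated WT against rank 3 in fresh WT cells, Ube2n at rank 8 against 16 and Ube2s at rank 1 against 6. Ube2e2 and Ube2j2 were the lowest in every group, at or below 0.887 CPM per kb.

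**Figure D5:**
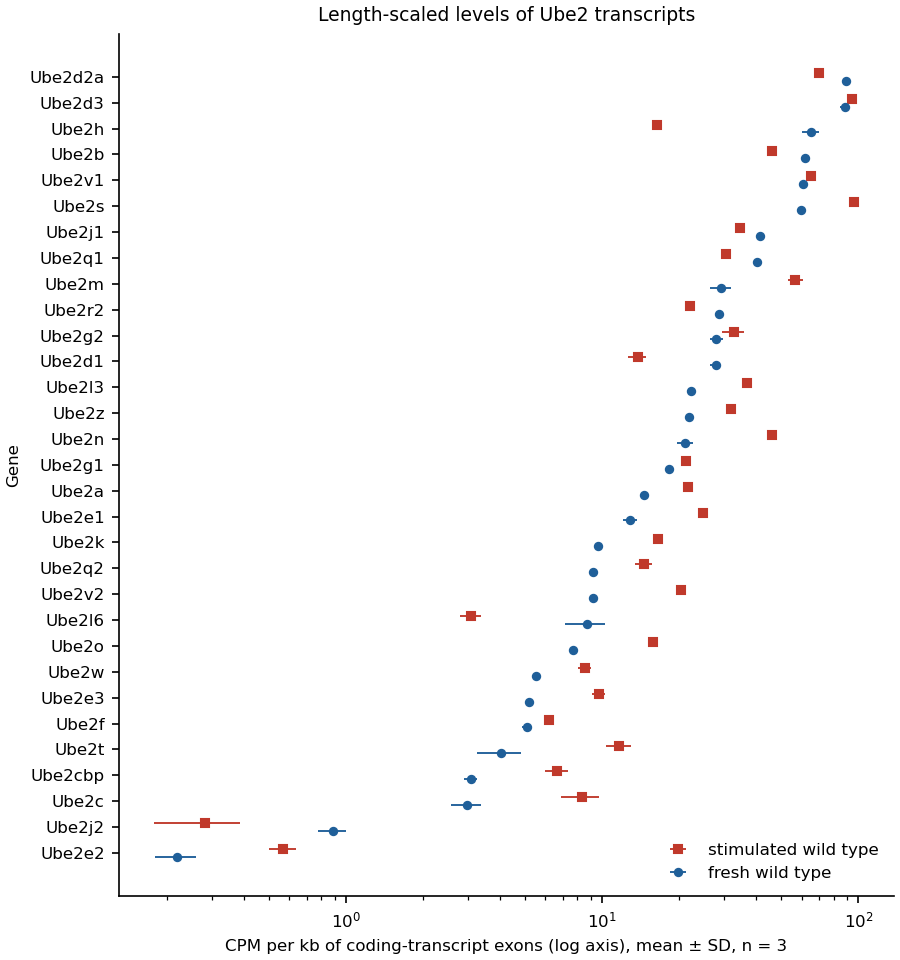
Level of 31 of the 32 tested Ube2 genes in CPM per kb of coding-transcript exons on a log axis, with red squares for stimulated WT and blue circles for fresh WT cells (mean and SD of 3 libraries). Genes are ordered by the fresh WT level, from Ube2d2a at 89.7 to Ube2e2 at 0.219, and Ube2h, Ube2d1, Ube2l6 and Ube2j2 have the stimulated square far to the left.

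The E3 ligases that use UBE2N went both ways on stimulation. Of 12 such ligases 5 rose and 7 fell in KO cells, where 41.7% of all genes rose and 42.2% fell, and 4 rose and 7 fell in WT cells, where 40.8% rose and 41.4% fell, with a median log2 fold change of -0.25 in KO and -0.24 in WT cells. Rnf168, a ligase of the DNA break response, rose by 1.1 and 1.11 (adjusted p = 1e-09 and 1.08e-09). Traf5, an adaptor of TNF receptors, fell to 7.25 ± 0.647 CPM in stimulated WT cells, against 20.4 ± 2.21 CPM in fresh WT cells (adjusted p = 9.07e-08). For genotype, 1 of the 12 was called, in stimulated cells, where 9.3% of all genes were called. This was Chfr, a mitotic checkpoint ligase, at 56.2 ± 1.02 CPM in stimulated KO against 65.0 ± 0.779 CPM in stimulated WT cells (log2 fold change -0.21, adjusted p = 0.0131).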

How the data were processed

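For each of 12 libraries the authors deposited raw counts by gene symbol, not normalized. Per the submitters' processing notes, the build was mm10 and the tools were DESeq2, HTSeq, TopHat and TopHat2; their versions, the annotation and the strand setting were not given in the sources used here. The 5 HTSeq summary lines, 5.22% to 6.43% of a file's total, were left out. No pair of replicates was as alike as sampling noise alone would make it (chi-square divided by its degrees of freedom, 4.26 to 18.6).

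Counts were fitted in R 4.3.3 with edgeR 4.0.16: filterByExpr by group (12759 genes left), TMM factors (0.988 to 1.01) and 1 quasi-likelihood model over all 12 libraries, with a coefficient per group and 8 residual degrees of freedom. Tests were two-sided, adjusted by Benjamini-Hochberg over all genes tested, and a gene was called at an adjusted p under 0.05. Every adjusted p is from this test unless another tool is named. DESeq2 1.42.0, limma-voom (limma 3.58.1), DESeq2 size factors in edgeR, no filter, only the groups of a contrast, and fits without the libraries with Y-linked reads or without each library were alternatives. The code was tested on simulated data.

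Gene positions, exon lengths and overlaps come from GENCODE M21, and promoter windows from RefSeq (GRCm38.p6). Near-identical sequence means at least 98% identity over at least 50 bases, on either strand and with overlapping genes included. Genes shown in every library were the E2s bound by OTUB1, the UBE2N cofactors and those called for genotype. The 6 highest and 6 lowest called stimulation effects in WT were also shown in this way. Of other lists, at most 4 genes per comparison by smallest adjusted p are named. Cell type markers are the exception and are named by their direction or level. Members and lists were chosen with earlier results of these data known. The values of 1 tested Ube2 gene are not reported here and it is left out of the plots; the counts over all 32 include it.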

Additional observations from a re-analysis of the deposited data

Results flagged for a closer look

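The KO effect on Otub1 differed between the states. The log2 fold change of KO over WT was -2.66 in stimulated cells (SE 0.14) and -1.19 in fresh cells (SE 0.14), and the test of the difference gave -1.47 (SE 0.20, edgeR adjusted p = 0.00329). Otub1 averaged 14.8 ± 1.26 CPM in stimulated KO and 94.0 ± 7.48 CPM in stimulated WT cells, against 27.6 ± 1.91 CPM in fresh KO and 62.8 ± 15.4 CPM in fresh WT cells (SD, n = 3). Stimulated KO libraries were below fresh KO libraries, while stimulated WT libraries were above fresh WT libraries. B cell and myeloid marker sums were lower in stimulated than in fresh libraries of both genotypes, and their part in this difference was not tested.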

How the results depend on the processing

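The counts of Ube2 genes called with stimulation stayed within 1.5 times under each alternative, and 0 Ube2 genes were called in fresh KO against fresh WT cells or for the interaction under any. In stimulated KO against stimulated WT cells, higher Ube2 genes numbered 2, with 1 under DESeq2, under DESeq2 size factors, with no filter and when libraries with Y-linked reads were left out, 0 with only the groups of the contrast, and 0 to 2 without each library. Lower ones numbered 0, with 1 under DESeq2 and with no filter, and 0 to 1 without each library.

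Over all genes, higher calls in fresh KO cells numbered 125, with 223 under DESeq2, 202 with no filter, 53 without the libraries with Y-linked reads and 21 to 170 without each library. Lower ones numbered 28, with 103 under DESeq2, 49 under limma-voom, 43 with no filter and 8 to 76 without each library. In stimulated KO cells 648 were higher (258 to 796 without each library) and 539 lower, with 358 in a fit of the groups of the contrast, 359 without the libraries with Y-linked reads and 256 to 532 without each library. For the interaction 89 were higher, with 192 under DESeq2, 151 with no filter, 55 without the libraries with Y-linked reads and 32 to 153 without each library. There 199 were lower, with 350 under DESeq2, 67 without the libraries with Y-linked reads and 99 to 252 without each library. The cause was not tested.

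Of uncalled KO effects, Ube2e1 in fresh cells reached 0.050 and Ube2d3 in stimulated cells 0.0039 without the libraries with Y-linked reads, against -0.018 and -0.015 with them. Leaving out each library gave ranges across 0 in fresh cells for Ube2e1 (-0.044 to 0.033) and Ube2n (-0.025 to 0.073), and in stimulated cells for Ube2d1 (-0.099 to 0.012), Ube2d2a (-0.0071 to 0.10), Ube2d3 (-0.057 to 0.015), Ube2e1 (-0.030 to 0.037) and Ube2e2 (-0.043 to 0.50). No paired analysis was possible because the numbers in the sample titles do not match between groups, apart from 1 number shared by a fresh KO and a stimulated WT sample. Depth limits Ube2e2 and Ube2j2, the rarest tested genes, whose intervals were the widest. Counts do not show which transcripts or exons were read.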
